A study of Mus musculus with 13 samples.

Results

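Cartilage genes were followed in mouse embryonic fibroblasts (MEFs) given hairpins against the histone methyltransferase Setdb1, without and with the drug 5-azacytidine (5-aza). The 10 genes were chosen by name: the transcription factors Sox9, Sox5 and Sox6, and the matrix genes Acan, Hapln1, Prg4, Comp, Matn2, Chad and Cilp. Each matched 1 row of the 25965 gene intervals in the table. The genes, and the lists set beside them, were chosen with earlier results of these data known. Counts of called genes among them therefore cannot be read as support. The cells were primary female MEFs from E13.5 embryos that carried an Xist deletion allele (XistΔA) on one X chromosome and a PGK-strain X chromosome as the other. They were transduced with hairpin retroviruses and selected with puromycin; where 5-aza was given, it was added on day 3 for 24 h, and RNA was taken on day 7. There were 4 groups of 3 poly(A) RNA libraries: control hairpin, control hairpin + 5-aza, Setdb1 hairpin, and Setdb1 hairpin + 5-aza. In the control groups, replicate 1 received a hairpin against luciferase and replicates A and B the non-silencing hairpin (Nons). In the Setdb1 groups, replicate 1 received shSetdb1.6 and replicates A and B received shSetdb1.4. Per the study's text, the cells given Setdb1 hairpins were Setdb1 +/gt (1 gene-trap allele) and those given Nons were Setdb1 +/+, while the genotype of the luciferase cells was not stated there, so hairpin and genotype cannot be told apart in these comparisons. The labels do not say whether replicates came from separate embryos, so p-values measure the spread between these libraries, which may be technical.

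Setdb1 adds methyl groups to lysine 9 of histone H3, a mark of silent chromatin, and 5-aza traps DNA methyltransferases so that DNA methylation is lost as cells divide. In cartilage, Sox9 is the master regulator of chondrocyte fate, and Sox5 and Sox6 act with it on genes of the cartilage matrix. Aggrecan, encoded by Acan, is the large chondroitin sulfate proteoglycan that lets cartilage resist compression, and the link protein encoded by Hapln1 fixes it to hyaluronan. Prg4 encodes lubricin, the lubricant of joint surfaces. Comp and Matn2 encode adaptor proteins of the matrix, Chad a leucine-rich repeat protein that binds collagen, and Cilp a matrix protein of the middle layers of articular cartilage.

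The guide strands of both Setdb1 hairpins are shown because they define the groups compared. They are the 22 bases of the stem that are complementary to Setdb1, written as DNA with bases 2 to 8, the seed, in capitals.
shSetdb1.4: tTTGTCTGcaaagtcatctgtc
shSetdb1.6: tAGATCTTgagaactgcttttc
The site of shSetdb1.4 lies at chr3:95327805-95327826 and that of shSetdb1.6 at chr3:95348003-95348024 (GRCm38, Setdb1 on the minus strand), both in coding exons. These sites were present in 4 and 5 of the 6 Setdb1 transcripts of GENCODE vM21. Setdb1 itself was at 46.1 to 46.4 RPM (reads per 1e6 reads of the library) in the control group and 12.1 to 15.4 RPM under Setdb1 hairpins. The groups with 5-aza held 42.7 to 43.9 RPM and 10.5 to 14.5 RPM, so the control and Setdb1 groups were apart in either condition.

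The 250 bases before the RefSeq start (GRCm38.p6) of Acan and Hapln1 are shown because these 2 matrix genes had the largest fitted rises with Setdb1 hairpins. CpG sites were marked because they can carry the DNA methylation that is lost with 5-aza. Capitals mark each CG.
Acan: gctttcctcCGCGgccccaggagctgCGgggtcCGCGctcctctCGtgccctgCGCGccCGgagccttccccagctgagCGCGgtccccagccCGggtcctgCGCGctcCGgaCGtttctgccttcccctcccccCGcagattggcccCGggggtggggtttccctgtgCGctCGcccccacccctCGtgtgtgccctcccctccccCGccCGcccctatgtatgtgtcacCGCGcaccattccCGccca
Hapln1: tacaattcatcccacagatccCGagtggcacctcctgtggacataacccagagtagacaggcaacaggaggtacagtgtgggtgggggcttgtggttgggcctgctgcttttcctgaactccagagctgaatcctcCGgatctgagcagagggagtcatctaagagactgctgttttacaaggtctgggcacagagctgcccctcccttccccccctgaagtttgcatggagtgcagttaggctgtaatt
The Acan stretch (chr7:79052976-79053225, plus strand) held 26 CG, and 90.4% of the 32851 promoters of this length in the RefSeq table held fewer. The Hapln1 stretch (chr13:89540386-89540635, plus strand) held 2 CG, and 18.8% of promoters held fewer. The median over all promoters was 6. Of the 10 genes, 6 had a promoter in the table. The Sox5 stretch held 3 CG, the Cilp stretch 3, the Chad stretch 10, and the 6 alternative starts of Sox6 between 1 and 10. The motif AACAAT, a core bound by SOX proteins, was searched on both strands (AACAAT or ATTGTT). It was in neither stretch shown, and among these genes only 1 Sox6 start held it, against 9.42% of all promoters. DNA methylation and H3K9 methylation were not measured in these files.

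Most cartilage genes were low in these fibroblasts. Per kb of merged exon, Sox9 was the highest of the 10 in each group, at 8.23 ± 0.936 RPM per kb with control hairpins (SD, n = 3), followed by Prg4 at 3.12 ± 1.22 and Matn2 at 2.9 ± 0.546 RPM per kb. Prg4 and Matn2 did not differ beyond their spread. Comp followed at 0.303 ± 0.102 RPM per kb. Sox5 (0.0853 ± 0.0102), Acan (0.0784 ± 0.0411), Hapln1 (0.0699 ± 0.0218) and Sox6 (0.0431 ± 0.0135 RPM per kb) were lower. Among these, Acan did not differ from Sox5 or from Hapln1 beyond the SD, and the means of Hapln1 and Sox6 were each outside the SD of the other. With Setdb1 hairpins, Acan stood at 0.47 ± 0.106 RPM per kb, next to Comp at 0.548 ± 0.153, and ahead of Hapln1, Sox5 and Sox6. With Setdb1 hairpin + 5-aza, Acan was at 0.0703 ± 0.00656 RPM per kb, last among the 8 genes that could be tested and next to Sox6 at 0.0713 ± 0.0048.

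The 12 hairpin libraries held 41.9 to 58.8 M reads, so that 1 read was 0.017 to 0.0239 RPM. A gene was tested where 3 or more of these libraries reached 1 RPM, which left 13134, and a change was called at an adjusted p under 0.05. Fold changes are log2 differences of RPM with the standard error (SE) of the fit. Of the 10 genes, 8 passed this filter. Sox9, Sox5, Prg4 and Matn2 were at 1 RPM or more in all 12 libraries. Comp was in 8, of which 1 was in each control group and 3 in each Setdb1 hairpin group. Acan passed only through the 3 Setdb1 hairpin libraries without 5-aza, and Sox6 and Hapln1 only through libraries with Setdb1 hairpins. These 3 genes were in the test because they were high there. Comp, too, would not have passed on its control libraries alone. A count of genes called among the 8 therefore cannot be read as support. Chad had at most 2 reads and Cilp at most 7 in any hairpin library.

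**Figure D1:**
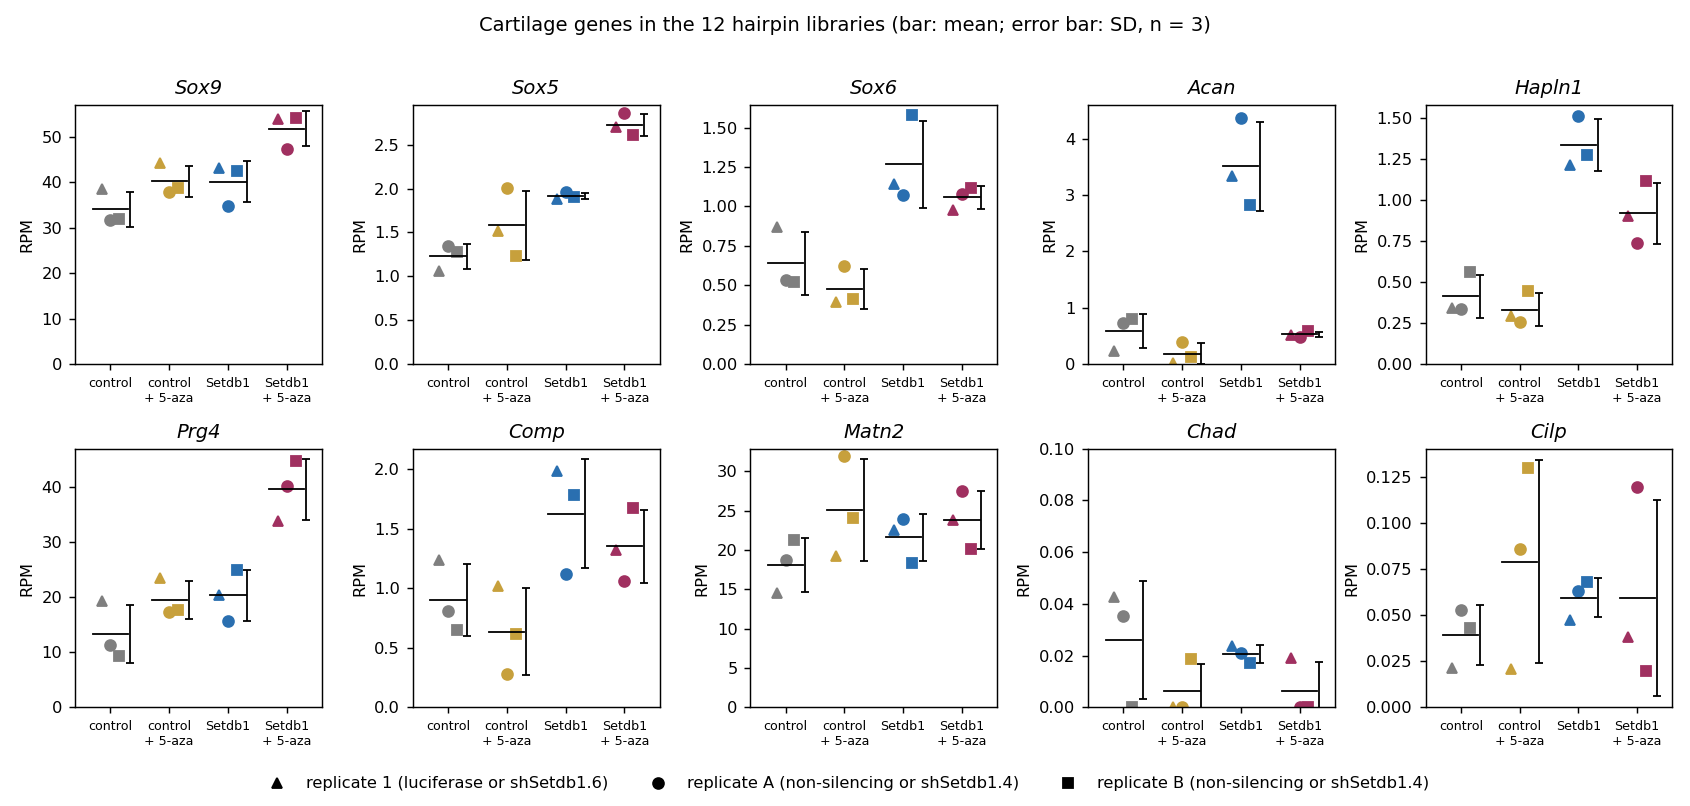
RPM (y axis, linear, from 0) of the 10 cartilage genes in the 12 hairpin libraries, by group (x axis); symbols mark replicates, the horizontal bar is the mean and the error bar the SD (n = 3), stopped at 0. Acan stands at 2.82 to 4.38 RPM with Setdb1 hairpins and below 0.8 RPM in each other group, Sox5 and Prg4 are highest with Setdb1 hairpin + 5-aza, and Chad and Cilp rest on a few reads.

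Without 5-aza, Setdb1 hairpin cells were compared with control hairpin cells, where hairpin and genotype cannot be told apart. Acan, Hapln1, Sox6 and Sox5 rose, and Sox9, Prg4, Comp and Matn2 did not pass the test. This gave 4 of 8 genes called higher and 0 lower, where 9.01% of all genes tested were called higher and 3.40% lower. For 4 of the 8 no library of one group reached the other group, and for all genes tested this share was 34.4%. As Acan, Hapln1 and Sox6 are 3 of these 4 and were in the test only through Setdb1 hairpin libraries, nothing can be read from that count. All 8 fold changes were above 0, beside a median of 0.03 over all genes tested. The share of all genes above 0 was not counted. Acan, Hapln1, Sox6 and Comp needed Setdb1 hairpin libraries to pass the filter, so nothing can be read from the 8 signs either. Of all called genes, 72.6% were higher as deposited, 54.7% with quantile normalization and 48.0% with each library centred on its median; the 8 cartilage genes stayed above 0 with either scaling.

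Among the regulators, Sox5 was at 1.06, 1.34 and 1.27 RPM in replicates 1, A and B with control hairpins, compared with 1.88, 1.96 and 1.9 RPM when Setdb1 was targeted. All 3 Setdb1 hairpin libraries lay above the controls, and they were close to each other. The fold change was 0.65 (SE 0.16, adjusted p 0.0201). The Sox6 libraries held 0.871, 0.53 and 0.518 RPM in the control group, and 1.14, 1.07 and 1.58 RPM in the Setdb1 hairpin group. The highest control was the luciferase library, and it was still below the lowest Setdb1 hairpin library. The fold change was 1.01 (SE 0.24, adjusted p 0.0206). Sox9 was at 38.5, 31.7 and 31.9 RPM and at 43, 34.8 and 42.4 RPM. The luciferase library lay above 1 of the Setdb1 hairpin libraries, so the groups overlapped, and the fold change of 0.24 (SE 0.10) had an adjusted p of 0.148.

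Among the matrix genes, Acan (aggrecan, ENSMUSG00000030607, chr7:79053483-79115099) was at 0.234, 0.725 and 0.798 RPM with control hairpins, which is 11, 41 and 37 reads. With Setdb1 hairpins it was at 3.34, 4.38 and 2.82 RPM, or 140, 208 and 166 reads. The mean was 6-fold higher with Setdb1 hairpins (3.51 ± 0.792 against 0.586 ± 0.307 RPM, SD, n = 3), and the fold change was 2.75 (SE 0.81, adjusted p 0.0452). Its partner Hapln1 (link protein, ENSMUSG00000021613, chr13:89540636-89611832) was at 0.34, 0.336 and 0.561 RPM with control hairpins. It was at 1.22, 1.52 and 1.27 RPM with Setdb1 hairpins, which is 51 to 75 reads against 16 to 26. The fold change was 1.73 (SE 0.26, adjusted p 0.00144), the smallest adjusted p among the 8 genes. Acan and Hapln1 were alike in that no control library reached any Setdb1 hairpin library.

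The Prg4 libraries held 19.3, 11.3 and 9.41 RPM in the control group, and 20.3, 15.7 and 24.9 RPM in the Setdb1 hairpin group. Again the luciferase library was the highest control, and the fold change of 0.65 (SE 0.24) did not pass the test (adjusted p 0.102). Comp, whose fold change was 0.87 (SE 0.41, adjusted p 0.196), was at 0.647 to 1.23 RPM and at 1.12 to 1.98 RPM. Matn2 was at 14.5 to 21.3 RPM and at 18.3 to 24 RPM (fold change 0.26, SE 0.19, adjusted p 0.411). For these 3 genes the groups overlapped.

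The calls without 5-aza differed in how they depended on single libraries and settings. The call of Hapln1 held in 14 of 15 alternatives (adjusted p 0.000359 to 0.0501, the last with replicates A and B only) and in each fit that left out 1 library. That of Acan was lost when any of the 6 libraries compared was left out (adjusted p 0.0656 to 0.168), with no filter (0.0692) and with median centring (0.0519), and held in 7 of 15 alternatives (0.000105 to 0.168). On the log2(RPM + 1) scale, which shrinks the change of low genes, the fold changes were 1.51 for Acan, 0.73 for Hapln1 and 0.47 for Sox6. Sox5 held in 11 of 15 (adjusted p 0.00856 to 0.234) and was lost on leaving out replicate 1 of the controls (0.0845), replicate 1 (0.0654) or A (0.0543) of the Setdb1 hairpin libraries, or replicate 1 of every group (0.234). Sox6 held in 10 of 15 (adjusted p 0.00916 to 0.0775) and was lost without control hairpin replicate A (0.0775) or B (0.0728), without Setdb1 hairpin replicate 1 (0.0557) or B (0.0668), and with quantile normalization (0.0555). Prg4 passed the test without control hairpin replicate 1 (fold change 0.95, adjusted p 0.0154) and with replicates A and B only (0.0411), over a range of 0.0154 to 0.298 in 16 alternatives.

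With 5-aza in both arms, Setdb1 and control hairpin cells were compared again, with the same limit that hairpin and genotype cannot be told apart. Hapln1, Sox6, Prg4, Sox5 and Sox9 rose, and Acan, Comp and Matn2 did not pass the test. That is 5 of 8 called higher and 0 lower, where 14.5% of all genes tested were called higher and 5.37% lower. For 7 of the 8 the groups were fully apart, among them Acan, Hapln1, Sox6 and Comp, and for all genes tested this share was 34.7%. These named genes needed Setdb1 hairpin libraries to pass the filter, and Hapln1 and Sox6 are also among the 5 called. Nothing can therefore be read from either count.

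Sox9 was at 44.1, 37.8 and 38.6 RPM with control hairpin + 5-aza and at 53.8, 47.4 and 54.2 RPM with Setdb1 hairpin + 5-aza. The groups did not overlap, and the fold change was 0.37 (SE 0.10, adjusted p 0.024). Sox5 was at 1.51, 2 and 1.23 RPM and at 2.7, 2.86 and 2.61 RPM (fold change 0.81, SE 0.16, adjusted p 0.00453). The Setdb1 hairpin libraries of Sox5 were again closer to each other than the controls. Sox6 was at 0.394, 0.624 and 0.41 RPM and at 0.978, 1.08 and 1.11 RPM (fold change 1.18, SE 0.24, adjusted p 0.00658). Each of the SOX genes was therefore higher in every Setdb1 hairpin library than in every control library when both had 5-aza.

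Hapln1 was at 0.29, 0.258 and 0.447 RPM with control hairpin + 5-aza and 0.901, 0.74 and 1.11 RPM with Setdb1 hairpin + 5-aza (fold change 1.49, SE 0.26, adjusted p 0.00255). Lubricin (Prg4) was at 23.5, 17.4 and 17.7 RPM and at 33.7, 40.2 and 44.7 RPM. Its groups did not overlap, and its fold change was 1.02 (SE 0.24, adjusted p 0.0122). Acan was at 0.0207, 0.388 and 0.13 RPM, which is 1, 18 and 7 reads, and at 0.518, 0.48 and 0.577 RPM, or 27, 24 and 29 reads. The groups did not overlap, but the fold change of 2.37 (SE 0.81) had an adjusted p of 0.059. It ran from 1.22 to 3.33 when 1 library was left out and was 0.38 on the log2(RPM + 1) scale. Comp was at 1.02, 0.28 and 0.614 RPM and at 1.32, 1.06 and 1.67 RPM (fold change 1.25, SE 0.41, adjusted p 0.0509). Matn2, at 19.2 to 32 RPM and 20.1 to 27.5 RPM, was the only gene with a fold change below 0 in this comparison (-0.05, SE 0.19, adjusted p 0.867), and this sign turned when control hairpin + 5-aza replicate A or Setdb1 hairpin + 5-aza replicate B was left out (0.14 and 0.06).

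In this comparison the calls of Hapln1 and Sox6 held in each of 15 alternatives (highest adjusted p 0.047 and 0.0379), and that of Sox5 in 14 of 15 (0.00104 to 0.052). On the log2(RPM + 1) scale their fold changes were 0.52, 0.48 and 0.54. Sox9 held in 12 of 16 (adjusted p 0.000913 to 0.0947) and was lost without control hairpin + 5-aza replicate A (0.0849) or B (0.0847) and without Setdb1 hairpin + 5-aza replicate 1 (0.0947) or B (0.0904). Prg4 held in 14 of 16 (adjusted p 0.00522 to 0.0549) and was lost without replicate B of either group (0.0504 for the control and 0.0549 for the Setdb1 hairpin). Comp passed in 7 of 15 alternatives (0.00782 to 0.172), among them those without control hairpin + 5-aza replicate 1 (0.0109) and without Setdb1 hairpin + 5-aza replicate A (0.0443), and Acan in 2 of 15 (0.00941 to 0.148), 1 of them without control hairpin + 5-aza replicate A (0.00941).

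**Figure D2:**
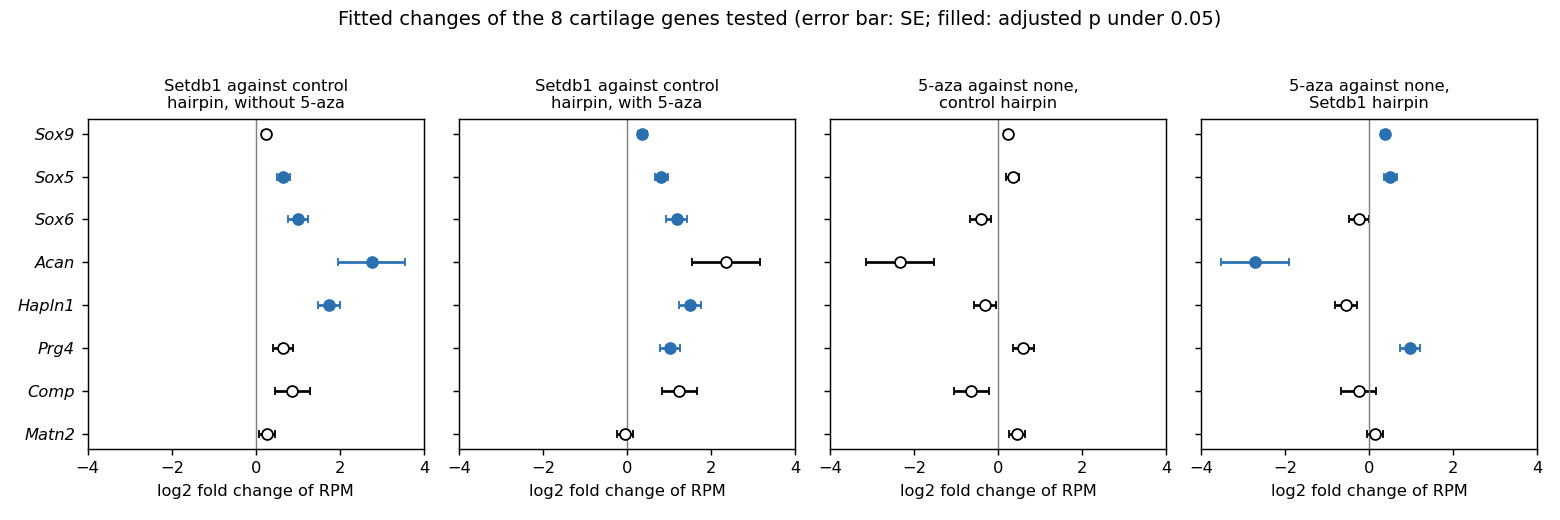
Log2 fold change of RPM (x axis) for the 8 cartilage genes tested (y axis) in 4 comparisons; points are limma estimates, bars are SE, and filled points passed an adjusted p of 0.05. Filled points lie above 0 in both hairpin comparisons (4 and 5 genes), none is filled for 5-aza in control hairpin cells, and Acan is the only filled point below 0 for 5-aza in Setdb1 hairpin cells. All points are from the fit without a block.

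In control hairpin cells, none of the 8 genes passed the test for 5-aza in the fit without a block. By limma, 5 of the 8 had an unadjusted p under 0.05, and voom, a second method of limma run on reads, called 0 with 4 at that level. With libraries that share a hairpin and a replicate name taken as a block, Acan, Prg4, Sox9 and Matn2 were called. The labels do not say that such libraries shared a culture, so the outcome for these 4 genes depends on the model. Among all genes tested, 13.47% were called higher and 5.34% lower without a block. The groups were fully apart for 37.6%, against 0 of the 8 cartilage genes. Acan, Hapln1, Sox6 and Comp needed Setdb1 hairpin libraries to pass the filter and were low in both control groups. Nothing can therefore be read from these counts. Acan had a fold change of -2.34 (SE 0.81, adjusted p 0.063), from 11, 41 and 37 reads to 1, 18 and 7. It ran from -3.30 to -1.19 when 1 library was left out and was -0.42 on the log2(RPM + 1) scale, where Prg4 was at 0.56. For the luciferase pair alone, the Acan level with 5-aza was 0.0887 of that without (95% exact interval 0.00206 to 0.61, counting error only). The other fold changes were 0.60 for Prg4 (SE 0.24, adjusted p 0.0979), 0.45 for Matn2 (SE 0.19, adjusted p 0.113), 0.34 for Sox5 (SE 0.16, adjusted p 0.144), 0.24 for Sox9 (SE 0.10, adjusted p 0.108), -0.31 for Hapln1, -0.42 for Sox6 and -0.63 for Comp.

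Single libraries decided some of these. Without control hairpin replicate 1, Sox9 (adjusted p 0.0394), Acan (0.0403) and Prg4 (0.0104) passed the test. Acan also passed without control hairpin + 5-aza replicate A (0.0081), Sox5 without control hairpin + 5-aza replicate B (0.0436), and Matn2 without control hairpin + 5-aza replicate 1 (0.0444). Over all alternatives the adjusted p of Acan ran from 0.00155 to 0.198, that of Prg4 from 0.00428 to 0.336, that of Sox9 from 0.00148 to 0.298, that of Sox5 from 0.0436 to 0.477 and that of Matn2 from 0.00338 to 0.323.

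In Setdb1 hairpin cells, 5-aza raised Prg4, Sox5 and Sox9 and lowered Acan. Of the 8 genes, 3 were called higher and 1 lower, where 21.4% of all genes tested were called higher and 7.51% lower. For 5 of the 8 the groups were fully apart, against 43.4% of all genes tested. Acan, the gene called lower, was in the test only because it was high in the 3 Setdb1 hairpin libraries without 5-aza. Its change is measured from those same libraries, so the filter favoured a fall. Hapln1, among the 5 fully apart, also passed only through Setdb1 hairpin libraries, so nothing can be read from these counts. Acan fell from 3.34, 4.38 and 2.82 RPM to 0.518, 0.48 and 0.577 RPM, a mean 6.69-fold lower (0.525 ± 0.049 RPM, SD, n = 3), with a fold change of -2.72 (SE 0.81, adjusted p 0.0266). With 5-aza the 3 Setdb1 hairpin libraries lay between the lowest and the highest control hairpin library without 5-aza (0.234 to 0.798 RPM). Prg4 moved the other way, from 15.7 to 24.9 RPM without 5-aza to 33.7 to 44.7 RPM with it (fold change 0.98, SE 0.24, adjusted p 0.0117). Sox9 went from 34.8 to 43 RPM to 47.4 to 54.2 RPM (fold change 0.37, SE 0.10, adjusted p 0.0172), and Sox5 from 1.88 to 1.96 RPM to 2.61 to 2.86 RPM (fold change 0.51, SE 0.16, adjusted p 0.0313). For Hapln1 the 3 libraries with 5-aza lay below the 3 without, and the fold change was -0.55 (SE 0.26, adjusted p 0.132). Sox6 (-0.24, SE 0.24), Comp (-0.25, SE 0.41) and Matn2 (0.14, SE 0.19) had adjusted p-values of 0.477, 0.668 and 0.601.

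The Acan fold change was -1.55 on the log2(RPM + 1) scale, and its call held in 10 of 15 alternatives (adjusted p 0.00011 to 0.0826) and, of the 6 fits that left out 1 library, only in the fit without Setdb1 hairpin replicate B (0.0489). Sox5 was lost in all 6 of those fits (0.0677 to 0.0729) and held in 5 of 15 alternatives (0.0106 to 0.138). Sox9 held in 13 of 16 (7.31e-05 to 0.0706) and was lost without Setdb1 hairpin replicate A (0.0706) and without Setdb1 hairpin + 5-aza replicate 1 (0.0563) or B (0.0668). Prg4 held in 15 of 16 (0.000175 to 0.0514) and was lost without Setdb1 hairpin replicate A (0.0514).

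The libraries without and with 5-aza that share a hairpin and a replicate name were also set side by side as 6 pairs. The labels do not say that a pair shared a culture. In all 6 pairs Sox9 was higher with 5-aza, by 0.20, 0.25 and 0.28 in control replicates 1, A and B and by 0.32, 0.44 and 0.35 in the Setdb1 hairpin replicates (differences of log2 RPM). Prg4 was higher in all 6, by 0.28, 0.61 and 0.91 and by 0.73, 1.36 and 0.84, and Matn2 in all 6, by 0.18 to 0.78 and by 0.08 to 0.20. Sox5 was higher in 5 of the 6 pairs, and the exception was control replicate B, at -0.05. Acan was lower in all 6, by -3.50, -0.90 and -2.61 in the control pairs and by -2.69, -3.19 and -2.29 in the Setdb1 hairpin pairs. Hapln1 and Comp were lower in all 6 as well, Hapln1 by -0.23 to -0.38 and by -0.19 to -1.03, and Comp by -0.08 to -1.54 and by -0.07 to -0.58. In reads, however, Comp went from 30 to 33 in control replicate B and from 53 to 53 in Setdb1 hairpin replicate A. The sign of these Comp pairs rests on the scaling to depth. Hapln1 went from 16 to 14 and from 26 to 24 reads in control replicates 1 and B. Sox6 moved both ways, from -1.15 to 0.24 in the control pairs and from -0.50 to 0.01 in the others. Sox9 and Sox5 had differences above 0 in 11 of 12 pairs and Sox6 in 2 of 6, and the difference between these genes was not tested.

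**Figure D3:**
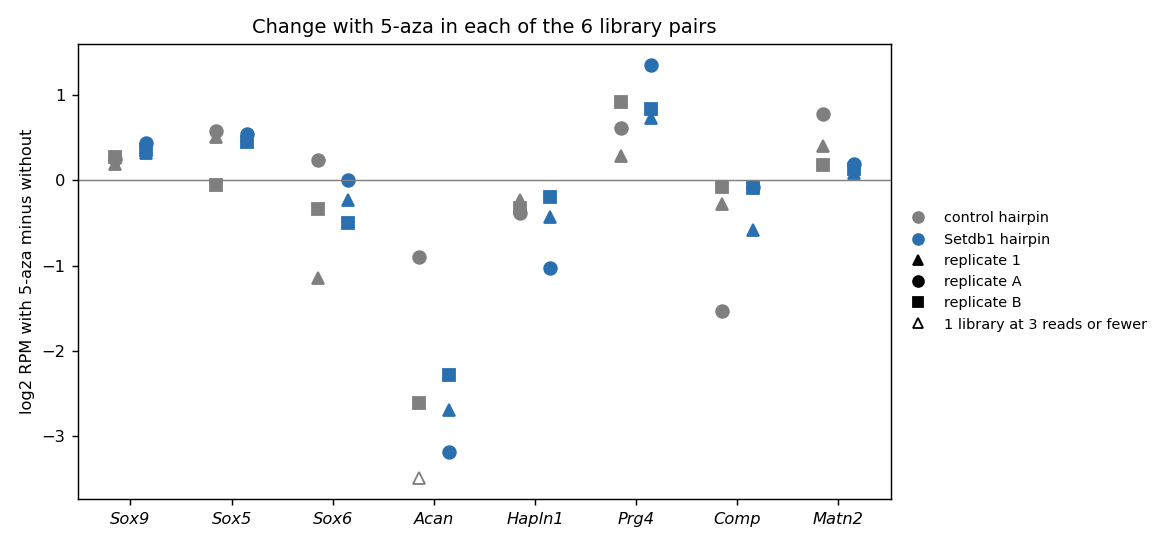
Difference of log2 RPM with 5-aza minus without (y axis) for the 8 cartilage genes tested (x axis), 1 point per pair of libraries with the same hairpin and replicate name; grey is control hairpin, blue is Setdb1 hairpin, the symbol is the replicate, and the open symbol has 1 library with 3 reads or fewer. All 6 points lie above 0 for Sox9, Prg4 and Matn2 and below 0 for Acan, Hapln1 and Comp.

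Whether 5-aza acted differently in Setdb1 hairpin and control hairpin cells was tested as an interaction. None of the 8 genes passed, and by both limma and voom 0 of the 8 had an unadjusted p under 0.05. Of all genes tested, 0.388% passed. The estimates ran from -0.38 for Acan (SE 1.14, adjusted p 0.934) to 0.38 for Comp (SE 0.58, adjusted p 0.862), with 0.37 for Prg4 (SE 0.34, adjusted p 0.8).

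Both Setdb1 hairpins gave similar levels for most genes. Without 5-aza, Acan was at 3.34 RPM in the shSetdb1.6 library and at 3.6 RPM on average in the 2 shSetdb1.4 libraries, Hapln1 at 1.22 and 1.39 RPM, Sox5 at 1.88 and 1.93 RPM, and Sox6 at 1.14 and 1.33 RPM. With 5-aza, Prg4 was at 33.7 RPM with shSetdb1.6 and 42.4 RPM with shSetdb1.4. With 1 shSetdb1.6 library per condition the difference between hairpins was not tested.

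Overlap with other genes bears on a few members, since the library kit does not mark strand. Prg4 shares 204 exon bases with Tpr, a nuclear pore gene on the opposite strand that was at 329 to 408 RPM, so part of the Prg4 reads may belong to Tpr. Tpr was at 376 ± 13.9, 335 ± 6.82, 401 ± 9.43 and 354 ± 10.1 RPM (SD, n = 3) in the control, control + 5-aza, Setdb1 and Setdb1 + 5-aza groups. Its means were lower with 5-aza in both arms and higher with Setdb1 hairpins in both conditions, and its part in the Prg4 values was not tested. Matn2 shares 70 exon bases with 9430069I07Rik, which was at 0.345 to 0.729 RPM, and Sox5 shares 1330 with Sox5os1, which had at most 2 reads.

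Chad and Cilp gave no basis for a comparison. Chad had 0 to 2 reads in each hairpin library, with 0 reads in 5 of the 12, and a count of 0 allows up to 3 reads, or 0.051 to 0.0716 RPM. Cilp had 1 to 3 reads with control hairpins, 1 to 7 with control hairpin + 5-aza, 2 to 4 with Setdb1 hairpins and 1 to 6 with Setdb1 hairpin + 5-aza. At this depth no difference between groups was detectable for either gene.

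The collagens of cartilage were listed beside these genes. Of 8, 6 were tested, 2 were called higher with Setdb1 hairpins in either condition, and none lower, where 9.01% and 14.5% of all genes tested were called higher without and with 5-aza. Col9a3, a chain of the type IX collagen that coats cartilage fibrils, was at 1.53 ± 0.107 RPM with control hairpins, 2.25 ± 0.315 with control + 5-aza, 3.41 ± 0.221 with Setdb1 hairpins and 4.67 ± 0.345 with both (SD, n = 3). It rose with Setdb1 hairpins (1.15, SE 0.11, adjusted p 5.9e-05, and 1.06, SE 0.11, adjusted p 0.000107, without and with 5-aza) and with 5-aza (0.54 and 0.45, SE 0.11, adjusted p 0.00741 and 0.0132). Col2a1, the main collagen of cartilage, was at 44.7 ± 2.61 RPM with control and 68.9 ± 14.5 RPM with Setdb1 hairpins, and rose in both hairpin comparisons (0.60 and 0.61, SE 0.17, adjusted p 0.0392 and 0.0272). With 5-aza in Setdb1 hairpin cells, Col11a1 (-1.24, adjusted p 0.00864) and Col10a1, a marker of hypertrophic chondrocytes (-0.73, adjusted p 0.00805), fell. Col9a1, which pairs with Col9a3 in type IX collagen, had at most 1 read in any hairpin library.

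Of 17 other cartilage matrix genes only 4 were tested, and 7 had at most 3 reads in every hairpin library (Matn1, Cnmd, Snorc, Ucma, Epyc, Cytl1 and Scrg1). Prelp, a leucine-rich repeat proteoglycan, fell with Setdb1 hairpins (-0.85 and -0.94, adjusted p 0.0252 and 0.0111), Bgn (biglycan) fell with Setdb1 hairpins where both arms had 5-aza (-0.31, adjusted p 0.0154), and Fmod (fibromodulin) fell with 5-aza in Setdb1 hairpin cells (-0.82, adjusted p 0.000773), as did Bgn (-0.23, adjusted p 0.043). None of the 4 rose in any of the 4 comparisons. Of all genes tested, 9.01% and 14.5% were called higher with Setdb1 hairpins without and with 5-aza, and 3.40% and 5.37% lower. For 5-aza, 13.47% were called higher and 5.34% lower in control hairpin cells, and 21.4% and 7.51% in Setdb1 hairpin cells. Of the other lecticans and link proteins (6 listed), only Vcan (versican) was tested. Its mean was 780 ± 55.1 RPM in the control and 771 ± 35 RPM in the Setdb1 hairpin group, and it was called in no comparison.

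Of 17 genes for making and sulfating chondroitin sulfate, 15 were tested. With Setdb1 hairpins 2 were called higher without 5-aza and 1 with it, none lower, where 9.01% and 14.5% of all genes tested were called higher. Chst11, a chondroitin 4-O-sulfotransferase, was higher in all 4 comparisons (0.29, 0.24, 0.35 and 0.30, adjusted p 0.019, 0.0325, 0.00509 and 0.00855). The chondroitin synthase gene Chsy1 was the other gene that rose without 5-aza (0.21). With 5-aza, 5 were called higher and 2 lower in control hairpin cells, among the former Chst12 (0.21) and Chpf2 (0.19), and 4 higher and 2 lower in Setdb1 hairpin cells (all genes tested: 13.47% higher and 5.34% lower, and 21.4% and 7.51%). Chsy3, a chondroitin synthase, fell in both (-0.32 and -0.57, adjusted p 0.0141 and 0.000591), Papss2, which makes the sulfate donor, fell in control hairpin cells (-0.44, adjusted p 0.0141), and Ugdh, which makes UDP-glucuronate, rose in Setdb1 hairpin cells (0.60, adjusted p 0.0121).

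Of 12 matrix proteases and the inhibitor gene Timp3, 10 genes were tested, Timp3 among them. The list was chosen with earlier results of these data known, so its counts are a description only. With Setdb1 hairpins 4 of the 10, again with Timp3, were called lower in either condition and none higher, where 3.40% and 5.37% of all genes tested were called lower. Adamts1 and Adamts5, proteases that can cleave aggrecan and versican, fell in all 4 comparisons, with fold changes for Adamts5 of -0.65, -0.51, -0.96 and -0.82 (SE 0.15, adjusted p 0.0178, 0.0368, 0.00159 and 0.00311), and for Adamts1 of -0.63, -0.40, -0.86 and -0.63 (SE 0.10, adjusted p 0.00189, 0.0157, 0.000218 and 0.00133). The mean of Adamts5 was 304 ± 72.5 RPM in the control group, against 108 ± 7.33 RPM for Setdb1 hairpin + 5-aza (SD, n = 3). Adamts9 and Timp3 fell with Setdb1 hairpins in both conditions (-0.46 and -0.39 for Adamts9, adjusted p 0.0193 and 0.0282, and -0.49 and -0.39 for Timp3, adjusted p 0.0248 and 0.0449). With 5-aza, Adamts12 fell in both arms (-0.72 and -0.88, adjusted p 0.00104 and 0.000382), Mmp9 fell in Setdb1 hairpin cells (-2.06, adjusted p 0.00978), and Htra1 rose in both (0.66 and 0.45, adjusted p 0.00736 and 0.0315).

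Of 30 regulators of chondrocytes, 22 were tested. This list, too, was chosen with earlier results known, and its counts are a description only. With Setdb1 hairpins 5 were called higher and 1 lower without 5-aza, and 4 higher and 4 lower with it, where 9.01% and 3.40% of all genes tested, and 14.5% and 5.37%, were called higher and lower. Runx3, a runt factor of maturing chondrocytes, had a pattern close to that of Acan: the control and Setdb1 hairpin groups held 1.5 ± 0.379 and 2.82 ± 0.322 RPM (SD, n = 3), and 0.75 ± 0.255 and 1.4 ± 0.124 RPM once 5-aza was given. It rose with Setdb1 hairpins (0.94 and 0.97, SE 0.26, adjusted p 0.0348 and 0.0219) and fell with 5-aza (-1.03 and -1.0, SE 0.26, adjusted p 0.017 and 0.0143). Runx2 (0.26 and 0.22, adjusted p 0.0141 and 0.0212) and the BMP receptor gene Bmpr1b (0.35 and 0.46, adjusted p 0.0114 and 0.00174) rose in both hairpin comparisons, Trps1 rose without 5-aza (0.39, adjusted p 0.00561), and Zfp521 (-0.58, adjusted p 0.00939) and Tgfb2 (-0.43, adjusted p 0.0163) fell where both arms had 5-aza. With 5-aza, 1 was called higher and 6 lower in control hairpin cells, and 1 higher and 11 lower in Setdb1 hairpin cells, where 5.34% and 7.51% of all genes tested were called lower. Bmp4 fell in both (-1.02 and -1.20, adjusted p 0.00757 and 0.00257), as did Zfp521 (-0.47 and -0.69, adjusted p 0.0243 and 0.00292) and Foxc1 (-0.44 and -0.34, adjusted p 0.000451 and 0.00186), while Tgfb2 fell in Setdb1 hairpin cells (-0.57, adjusted p 0.00339). In the interaction test none of the genes in these lists passed.

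**Figure D4:**
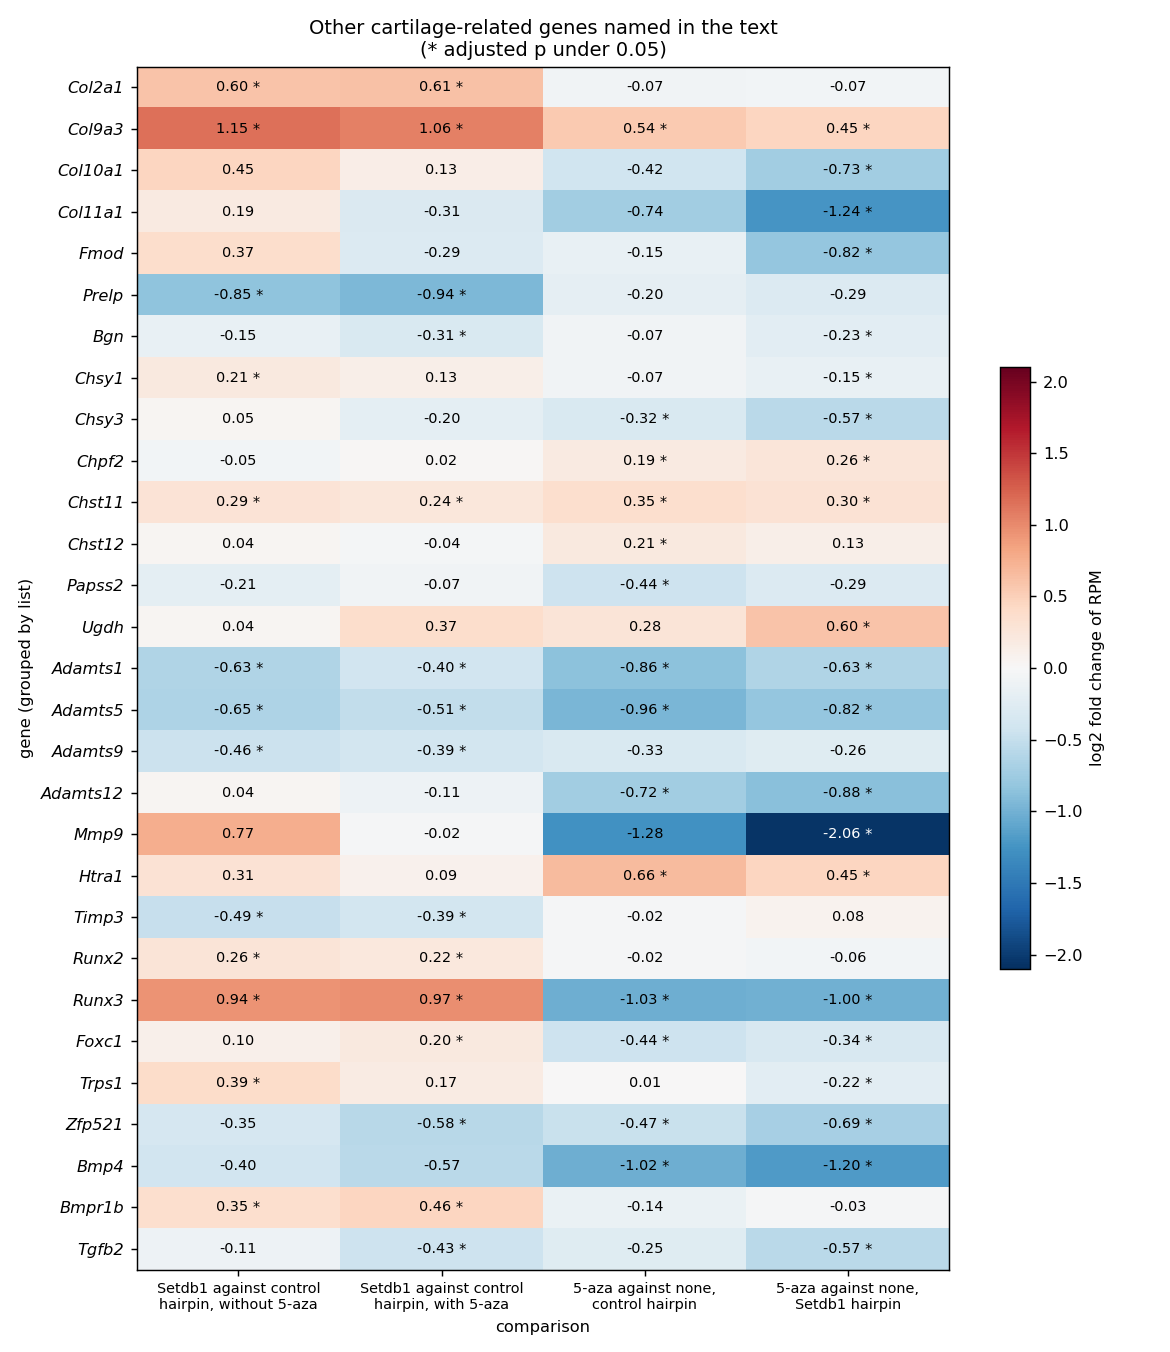
Log2 fold change of RPM (colour and printed value) for 29 other cartilage-related genes (rows, grouped by list) in 4 comparisons (columns); an asterisk marks an adjusted p under 0.05. Col9a3 is above 0 and Adamts1 and Adamts5 are below 0 in all 4 columns, and Runx3 is above 0 for Setdb1 hairpins and below 0 for 5-aza.

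The cells had a fibroblast profile in all 4 groups. Summed over 8 fibroblast genes the level was 25661 to 30775 RPM in the control group and 27807 to 34969 RPM in the Setdb1 hairpin group, and 23118 to 33875 and 22721 to 28888 RPM in the same order with 5-aza. None of the 8 was called for Setdb1 hairpins without 5-aza or for 5-aza in control hairpin cells, 1 was lower for Setdb1 hairpins with 5-aza (Thy1), and 1 was higher and 2 lower for 5-aza in Setdb1 hairpin cells (Vim, then Col1a1 and Pdgfrb). In the same order, 9.01%, 13.47%, 14.5% and 21.4% of all genes tested were called higher, and 3.40%, 5.34%, 5.37% and 7.51% lower. Of 20 chondrocyte markers, which include the 10 genes, 6 had at most 3 reads in every hairpin library (Chad, Col9a1, Matn1, Cnmd, Snorc and Ucma). The sum over the 20 was 115 to 123 RPM with control hairpins, 131 to 143 with control + 5-aza, 145 to 183 with Setdb1 hairpins and 181 to 204 with Setdb1 hairpin + 5-aza. A few genes carry this sum: with control hairpins the highest means were Col2a1 (44.7 RPM), Sox9 (34.0), Matn2 (18.1) and Prg4 (13.4). In bulk RNA, more cells of a type and more RNA per cell cannot be told apart.

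Markers of other cell types moved with the same groups. Of all genes tested, 9.01% and 14.5% were called higher with Setdb1 hairpins without and with 5-aza, and 3.40% and 5.37% lower. For 5-aza, 13.47% were called higher and 5.34% lower in control hairpin cells, and 21.4% and 7.51% in Setdb1 hairpin cells. Of 6 epithelial markers 2 were tested and both, Krt8 and Krt18, were called higher in all 4 comparisons. Krt8 also passed the interaction test. Its means were 0.0202 ± 0.00217 RPM with control hairpins, 0.861 ± 0.0519 with control + 5-aza and 0.319 ± 0.125 with Setdb1 hairpins (SD, n = 3). With both it was at 2.3 ± 0.509 RPM. Krt8 thus passed the filter only through Setdb1 hairpin + 5-aza libraries, and its control level was near 1 read. Its calls therefore cannot be read as support. The list's sum was 2.76 to 3.29 RPM with control hairpins, 9.28 to 11.2 with control + 5-aza, 9.7 to 10.6 with Setdb1 hairpins and 21 to 23.6 with both. Most of it was Krt18, with means of 2.87, 8.96, 9.6 and 19.6 RPM in the same order. Krt5, not tested, was at 0.472 RPM with control + 5-aza and 0.0775 RPM with both. Krt14, Epcam and Cdh1 had at most 8, 7 and 4 reads in any hairpin library. The tendon factor Scx rose with Setdb1 hairpins without 5-aza (1.57, SE 0.19, adjusted p 0.000317) and with 5-aza in control hairpin cells (1.39, SE 0.19, adjusted p 0.000662). Of the 4 tendon markers 3 were tested. Tnmd was called lower for Setdb1 hairpins with 5-aza (-0.55, adjusted p 0.0114) and for 5-aza in Setdb1 hairpin cells (-0.80, adjusted p 0.00142), and Mkx for the latter (-0.35, adjusted p 0.0266). The tendon sum was 25.5 to 26.7, 20.2 to 25.2, 25.9 to 30.3 and 17 to 23 RPM in the 4 groups. The fat cell gene Fabp4 rose with Setdb1 hairpins (1.46 and 1.76, SE 0.16, adjusted p 0.000146 and 2.95e-05), while Lpl fell without 5-aza (-0.45, adjusted p 0.0354) and Pparg was not called (-0.05 and 0.83). The sum of 6 adipocyte markers was 26.7 to 32.3, 18.9 to 33.9, 21.8 to 32.3 and 27.3 to 41.1 RPM, with Adipoq, Plin1 and Cidec at no more than 3 reads. Of 7 osteoblast markers 1 was tested and not called, with sums of 1.76 to 5.25 RPM and Bglap and Bglap2 at no more than 3 reads. Their part in the cartilage results was not tested.

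Sums for the remaining marker lists ran from 50 to 52.9, 43.7 to 54.9, 64 to 73.6 and 50.6 to 66.9 RPM for neural and glial genes, with 2 of 6 tested and both called higher with Setdb1 hairpins without 5-aza, 1 with it, and 1 called lower with 5-aza in each arm. For skeletal muscle they were 194 to 208, 224 to 256, 210 to 239 and 239 to 260 RPM, with 3 of 7 tested, and for macrophages 9.97 to 10.8, 11.8 to 14.2, 9.78 to 10.5 and 12.7 to 13.1 RPM, with 2 of 7 tested, of which 1 rose with 5-aza in control and both in Setdb1 hairpin cells. Of the 3 muscle genes, 2 rose with 5-aza in control hairpin cells and 1 in Setdb1 hairpin cells, 1 rose with Setdb1 hairpins without 5-aza and 1 fell with it. Endothelial (2.34 to 5.67 RPM over all 12 libraries) and smooth muscle lists (9429 to 11419 RPM) had no gene called in any comparison. Over all genes tested, 9.01% and 14.5% were called higher with Setdb1 hairpins without and with 5-aza, and 3.40% and 5.37% lower. For 5-aza, 13.47% were called higher and 5.34% lower in control hairpin cells, and 21.4% and 7.51% in Setdb1 hairpin cells.

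Across the 12 libraries, the genes whose log2 RPM was most like that of each cartilage gene were listed as a description. The points share the 4 groups, so that a gene that moves with a group correlates with all others that do. For Acan these were Runx3 (Pearson r 0.973), Cdh10 (0.965) and Pbrm1 (0.958), for Hapln1 Lims1 (0.966), Sfn (0.959) and Khdrbs1 (0.951), and for Prg4 Triobp (0.971), Dsp (0.968) and Exoc7 (0.964). Sox9 was most like Prl2c3 (0.987), Igfbp4 (0.985) and Chd5 (0.984), Sox5 most like Raph1 (0.956), Rcan3 (0.951) and Arap3 (0.948), and Sox6 most like Plcl2 (0.973), Hoxa13 (0.939) and Zfp39 (0.937). Comp was closest to Tbrg1 (0.976), Myo19 (0.965) and Klf2 (0.957), and Matn2 to Rab23 (0.963), Ltbp4 (0.953) and Adamts14 (0.953). No cartilage gene was among the 3 most alike of another.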

How the data were processed

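Poly(A) RNA of MEFs was sequenced (Illumina TruSeq kit, single-end reads). The authors deposited a table of log2 RPM values per gene in GRCm38 coordinates (mm10, with CASAVA 1.4, per the submitters' processing notes); the aligner and counting settings behind it are not given in the sources used here. Up to 100 reads, 100% of values were whole multiples of 1 read (tolerance 0.05 read), and genes with no read hold 0.9 read. Of all reads, 86.9% to 87.8% lay in listed genes of the 12 hairpin libraries. The library named PGK has no hairpin in its label and entered no comparison, and 0 columns were left unmatched.

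A linear model (limma 3.58.1, R 4.3.3, eBayes with trend) took the log2 RPM values of all 12 libraries in 1 fit with group as the term, with two-sided tests and Benjamini-Hochberg adjustment over all 13134 genes tested. Fitted fold changes take 0.9 read for a count of 0. Alternatives were other filters, pseudocounts and scalings, voom on recovered reads, smaller sample sets, blocks and leaving out each library. Intervals are exact and, like the limit of 3 reads for a count of 0, cover counting error only. Exon lengths are from GENCODE vM21, promoters from RefSeq, hairpin sequences from the study's supplement. Other steps ran in Python 3.11.15 (scipy 1.17.1 for intervals, matplotlib 3.10.9 for figures).

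The text names all 10 cartilage genes, up to 4 called genes per list and comparison with the largest fold change, and the 3 most correlated genes per cartilage gene. Genes and lists were chosen with earlier results of these data known.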

Additional observations from a re-analysis of the deposited data

Results flagged for a closer look

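A single library given 5-aza, whose label names no hairpin, was used in no comparison. Its library name holds PGK, and the study's methods name a PGK sample as the source of strain variants, so its strain may differ from that of the hairpin libraries as well as its hairpin, and the values are set side by side only. It held 20.4 M reads, so 1 read was 0.0491 RPM. In it, 6 of the 10 cartilage genes lay above all 3 control hairpin + 5-aza libraries: Acan at 3.04 RPM (62 reads, against 0.0207 to 0.388 RPM), Cilp at 0.687 RPM (14 reads, against 0.0207 to 0.13 RPM), Sox6 at 1.72 RPM (35 reads, against 0.394 to 0.624 RPM), Sox5 at 2.6 RPM (against 1.23 to 2 RPM), Hapln1 at 0.638 RPM (13 reads, against 0.258 to 0.447 RPM) and Matn2 at 40.9 RPM (against 19.2 to 32 RPM). Cilp, Sox6 and Matn2 were also above every hairpin library of any group. Prg4, at 6.87 RPM, lay below every hairpin library. Sox9, at 36.2 RPM, lay below the 3 control hairpin + 5-aza libraries but within the range of all 12. The difference from any group was not tested, and the share of all genes above the control hairpin + 5-aza libraries was not counted. Without that share, nothing can be read from the count of 6.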

How the results depend on the processing

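Of 367 values of single genes under 11 alternatives other than leaving out a library, 335 kept their direction and their side of the threshold, 10 lost a call, 20 gained one and 2 turned: the interaction of Hapln1 (0.13 with quantile normalization) and that of Sox6 (-0.20 with replicates A and B only). With a filter of 5 RPM, at which fewer genes were tested (Acan, Hapln1, Sox5, Sox6 and Comp drop out), 0 cartilage genes were called for Setdb1 hairpins without 5-aza, 2 with it, and 2 for 5-aza in Setdb1 hairpin cells; 19 genes in all passed the interaction. With quantile normalization 3 cartilage genes (Acan, Sox6 and Hapln1) were called for 5-aza in control hairpin cells. With only the 2 groups compared, 1548 genes in all were called for Setdb1 hairpins with 5-aza, against 2609. With replicates A and B only, fewer samples gave 470 and 1403 genes in all for Setdb1 hairpins without and with 5-aza, 1532 and 2306 for 5-aza in control and Setdb1 hairpin cells and 8 for the interaction, and 2 cartilage genes for 5-aza in control hairpin cells. The share of called genes that were higher fell from 73.0% to 48.7% (with 5-aza), from 71.6% to 49% (5-aza, control) and from 74.0% to 52.3% (5-aza, Setdb1) with median centring.

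Leaving out 1 library gave 1 to 3 and 3 to 6 cartilage genes for Setdb1 hairpins without and with 5-aza, and 0 to 3 for 5-aza in either arm. Over all genes the counts were 721 to 1443, 1279 to 3428, 1260 to 2451 and 2191 to 3670 in the same order, and 29 to 43 for the interaction. Interaction estimates crossed 0 for Acan (-1.53 to 0.58), Comp (-0.12 to 0.81), Sox6 (-0.069 to 0.39) and Sox5 (-0.0048 to 0.35), as did Matn2 for Setdb1 hairpins with 5-aza (-0.23 to 0.14). Except for the filter and the smaller sets, the cause was not tested.

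The labels give the groups shared replicate names, but do not say that these mark shared cultures. Residuals of the pairs without and with 5-aza correlated, across genes, at 0.586, 0.149 and 0.0999 (control) and 0.472, 0.634 and 0.413 (Setdb1), so not every pair passed 0.1. With culture as a replicate block, 4 cartilage genes (Acan, Prg4, Sox9 and Matn2) and 3902 genes in all were called for 5-aza in control hairpin cells, and 169 for the interaction. With the replicate label as a replicate block, Sox9 passed for Setdb1 hairpins without 5-aza (adjusted p 0.0155), and Acan (0.0162) and Comp (0.00782) with it. Low counts limit Acan (1 to 41 reads per control hairpin library), Hapln1 (12 to 26) and Sox6 (19 to 41).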
